A study of Mus musculus and Homo sapiens with 32 samples.

Results

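The genes described here are the mouse MHC class I and class II genes and the genes that load and control them. They were taken by name from the table of the kidney obstruction experiment: every protein-coding gene whose symbol starts with H2-, plus Cd74, B2m, Tap1, Tap2, Tapbp, Ciita and Nlrc5. This gave 44 of the 57180 genes of the table, 21608 of which are protein-coding. Of the 44, 32 lie on the class I side (2 classical heavy chains, 25 non-classical heavy chains, the light chain B2m, the 3 peptide-loading genes Tap1, Tap2 and Tapbp, and the regulator Nlrc5). The class II side holds 12 genes (5 chains, 5 genes of peptide exchange, the invariant chain Cd74 and the regulator Ciita). A filter on low counts kept 33 members for testing, 22 of class I and 11 of class II. The 11 members left out were 10 non-classical class I genes and H2-Ea, with at most 17 reads each over all 18 libraries, and 7 of them had 0 reads in every library.

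MHC class I molecules are found on nearly all nucleated cells. A heavy chain pairs with B2m and shows peptides from the cytosol to CD8 T cells; the TAP transporter, made of Tap1 and Tap2, carries the peptides into the endoplasmic reticulum, where tapasin (Tapbp) helps to load them. Class II molecules, pairs of an alpha and a beta chain, are carried mainly by dendritic cells, macrophages and B cells and show peptides from endosomes to CD4 T cells; Cd74 guards their groove on the way and H2-DM exchanges its remnant for peptide. Nlrc5 and Ciita are the transactivators of the class I and class II genes, and interferon gamma is a known inducer of both.

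Whole kidneys of mice labelled Pcmt1 fl/fl (here fl/fl) and Pcmt1 tKO (here tKO) were profiled by mRNA sequencing after sham surgery with DMSO, after unilateral ureteral obstruction (UUO) with DMSO, or after UUO with LY2109761, which blocks the kinases of the receptors for TGF-β. UUO ties off the ureter of a kidney and is a widely used model of renal fibrosis, and PCMT1 is a protein repair methyltransferase. Each of the 6 groups held 3 libraries. The labels spell out neither tKO nor the driver of the deletion, and they state no strain, age, dose or time after surgery. Nothing in them ties replicates to separate animals. An edgeR p-value here is set by the spread between libraries within groups, pooled over the 6 groups of 3, and that spread may be technical.

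Depth ran from 13015669 to 19565376 reads per library. In the fl/fl kidneys mitochondrially encoded genes took 30.8 to 35.5% of the reads after sham surgery and 7.43 to 7.67% after UUO. In the tKO sham libraries that share was 33.7, 49.7 and 69.5%, so levels below are read counts scaled per library (CPM) of library sizes corrected for composition by the trimmed mean of M-values (TMM). The library labelled tKO sham replicate 1 held Pcmt1 at 49.3 CPM, against 22.7 and 24.3 in the other tKO sham libraries and 42.8 to 48.9 in fl/fl sham, which goes against its label. Counts of MHC members called against the tKO sham group are given with and without it. So are the changes printed for single members whose call, direction or size (by over 1.5 times) it decides. Counts for pathway and marker lists, and of members whose libraries lie wholly apart, are given only with it.

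Upstream of MHC genes lie short boxes bound by the RFX complex, CREB-type factors and NF-Y, the platform on which Nlrc5 and Ciita act. The 250 bases before the start of transcription were searched on both strands for the core of the Y box, CCAAT, for the core of the X2 box, TGACG, and for an interferon-stimulated element, 2 GAAA runs with any 2 bases between them. RefSeq (build GRCm38.p6) gave a window for 33 of the 44 members and 23 of those tested. As H2-K1 and H2-DMa have 2 windows each, the tested members hold 16 class I and 9 class II windows. The Y core stood in 14 of the class I and 8 of the class II windows, against 33.8% of all 32851 windows. The X2 core stood in 10 of the class I windows and in 1 class II window, that of H2-Aa, against 17.8% of all. The interferon element stood in 3 class I windows and 0 class II windows, against 2.98% of all. These are matches of letters, not shown binding sites, and members of a family share ancestry. For a pair of genes of each class whose levels the results turn on, the last 150 bases before the start are shown 5′ to 3′ in the direction of the gene, with matches to the 3 motifs in capitals (ATTGG is CCAAT read on the other strand, and TGACGTCA holds the X2 core on both strands). H2-K1 lies at chr17:34000348-34000497 on the minus strand, B2m at chr2:122147537-122147686 on the plus strand, H2-Aa at chr17:34287824-34287973 on the minus strand and H2-Eb1 at chr17:34305717-34305866 on the plus strand.
H2-K1: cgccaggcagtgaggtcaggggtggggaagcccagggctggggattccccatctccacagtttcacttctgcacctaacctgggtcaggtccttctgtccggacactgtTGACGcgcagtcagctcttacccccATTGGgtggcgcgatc
B2m: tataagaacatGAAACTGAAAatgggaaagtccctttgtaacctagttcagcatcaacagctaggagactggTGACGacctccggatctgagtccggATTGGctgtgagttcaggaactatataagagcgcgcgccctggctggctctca
H2-Aa: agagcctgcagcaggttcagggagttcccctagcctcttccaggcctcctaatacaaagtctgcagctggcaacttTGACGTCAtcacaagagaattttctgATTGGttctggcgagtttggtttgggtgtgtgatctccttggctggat
H2-Eb1: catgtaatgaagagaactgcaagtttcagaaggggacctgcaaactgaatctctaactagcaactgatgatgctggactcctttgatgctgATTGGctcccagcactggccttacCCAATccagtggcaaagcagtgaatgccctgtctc

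After obstruction the class II genes rose together, and most, not all, of the class I genes rose. In fl/fl kidneys all 11 tested class II members rose after UUO, with a median log2 change of 3.16, and 14 of 22 class I members rose and 1 fell, with a median of 1.47. Over all 19256 tested genes 20.9% rose, 18.7% fell (39.6% called either way) and the median log2 change was 0.02 (edgeR's quasi-likelihood test, Benjamini-Hochberg adjusted p under 0.05). In tKO kidneys the counts were the same, 11 of 11 class II and 14 of 22 class I members higher and 1 class I member lower, with medians of 2.98 and 1.03, against 21.6% higher and 19.4% lower among all genes (41% either way) and a median of 0.02. In fl/fl the UUO libraries lay wholly above the sham libraries in 26 members and wholly below in 2, against 28.8% and 26% of all genes, and in tKO in 26 and 1, against 26% and 22.8%. Without the library labelled tKO sham replicate 1, 25 members rose and 1 fell in tKO. These are RNA levels of whole kidney, in which more cells of a type and more RNA per cell cannot be told apart.

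**Figure D1:**
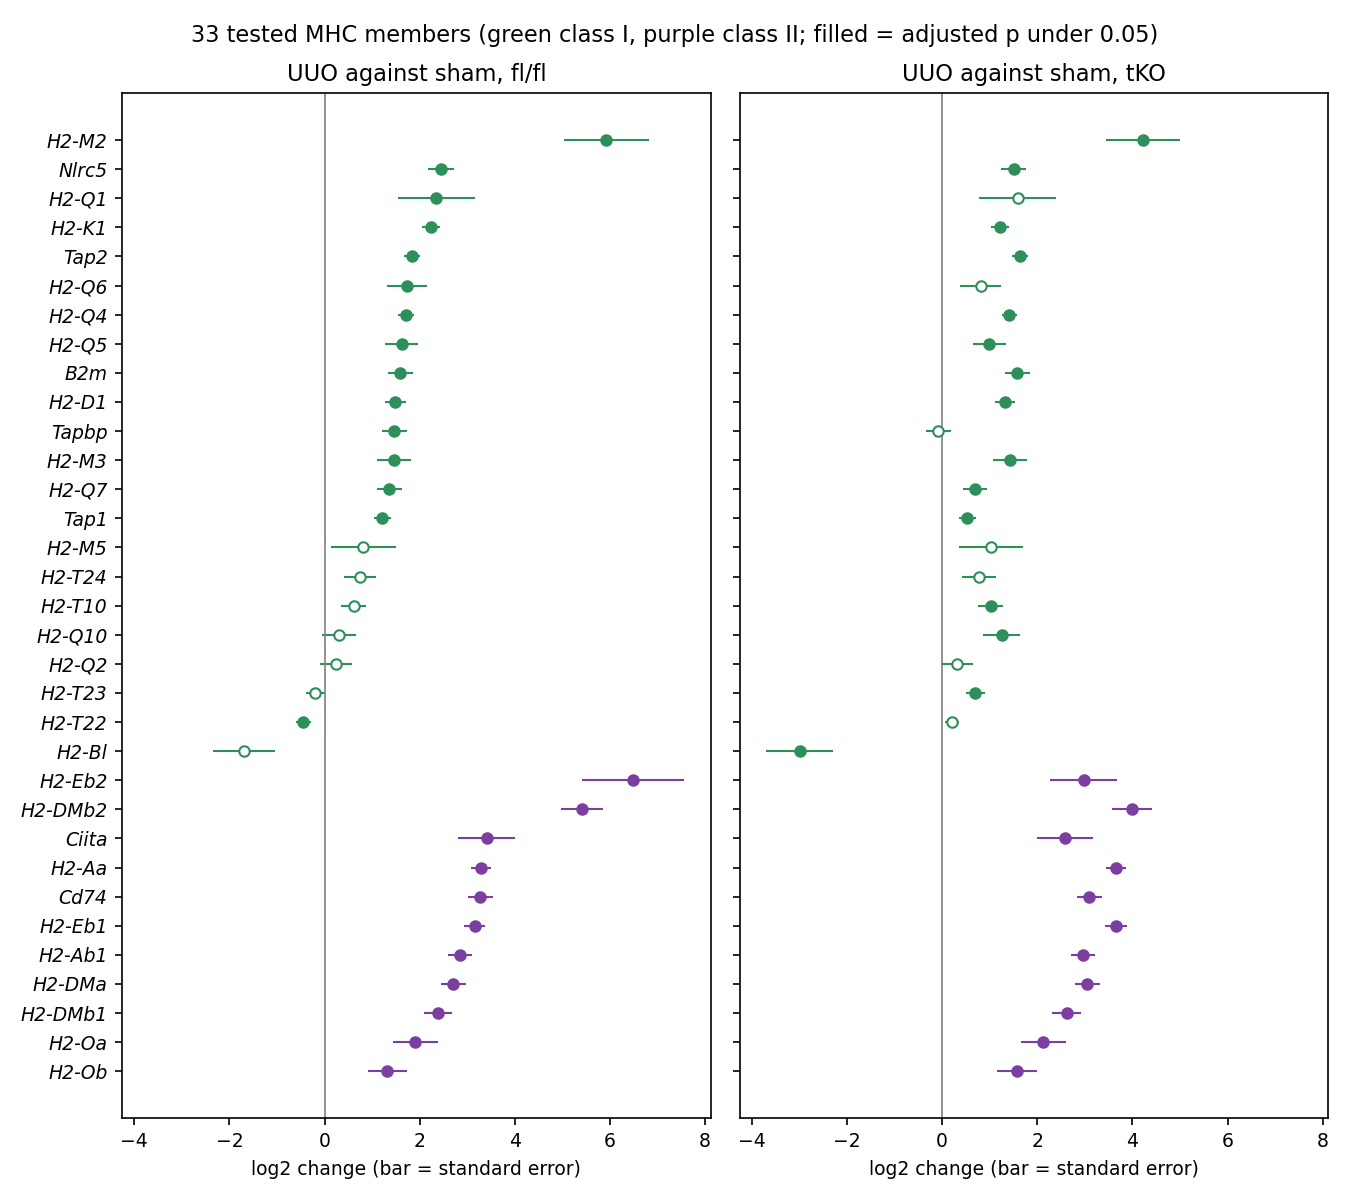
Log2 change (x axis, with its standard error) of each of the 33 tested members (y axis) between UUO and sham kidneys of fl/fl mice (left) and tKO mice (right). Filled points passed an adjusted p of 0.05. All 11 class II genes (purple) lie to the right of 0 in both panels, and the class I genes (green) run from H2-Bl, at -1.70 and -3.00, to H2-M2, at 5.92 and 4.22.

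Among the class II chains, H2-Aa, the alpha chain of the I-A molecule (ENSMUSG00000036594, chr17:34282744-34287823 in GENCODE M21, build GRCm38), stood at 49.6, 65.2 and 63.5 CPM in the fl/fl sham libraries and at 489.98, 734 and 517 CPM after UUO. In tKO it stood at 74.8, 67.1 and 75.0 CPM after sham and at 1087, 919 and 723 CPM after UUO. The lowest UUO library lay far above the highest sham library in either genotype. The log2 change was 3.29 ± 0.21 (SE) in fl/fl (9.76-fold, edgeR adjusted p = 4.4e-08) and 3.65 ± 0.21 in tKO (12.6-fold, adjusted p = 2.3e-08).

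H2-Ab1, the beta chain of I-A (chr17:34257689-34269419), read 47.2, 62.9 and 61.7 CPM in fl/fl sham and 308, 428 and 494 CPM in fl/fl UUO kidneys. The tKO values were 77.1, 50.3 and 49.8 CPM after sham and 545, 426 and 412 CPM after UUO. Sham and UUO libraries did not overlap, with log2 changes of 2.84 ± 0.25 in fl/fl and 2.96 ± 0.25 in tKO (edgeR adjusted p = 7.4e-07 and 6.1e-07). H2-Eb1, the beta chain of I-E (chr17:34305867-34316674), read 32.1, 41.3 and 37.7 CPM in fl/fl sham kidneys and 287, 410.1 and 295 CPM after UUO. In tKO it read 47.8, 32.1 and 44.7 CPM after sham and 624, 547 and 389.7 CPM after UUO. Again no UUO library fell within the sham range, and the log2 changes were 3.16 ± 0.22 and 3.65 ± 0.23 (adjusted p = 1.2e-07 and 4.3e-08).

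The alpha chain that would complete I-E, H2-Ea, had 0 reads in all 18 libraries; mouse strains of some MHC haplotypes are known not to transcribe it. H2-Eb2, a little-studied beta chain, had 0 reads in all fl/fl sham libraries and stood at 0.516, 0.776 and 0.590 CPM after UUO. Against a floor of 3 counts over the sham group this is at least 8.97-fold higher. In tKO, 3 reads in 1 sham library stood against 60 reads in the UUO libraries, a ratio of 8.06 with an exact 95% counting interval of 2.63 to 40.2. Those 3 reads came from the library labelled tKO sham replicate 1; without it the level is at least 4.2-fold higher. With H2-Eb2 at its bound the class II median in fl/fl is still 3.16.

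Cd74, the invariant chain that occupies the class II groove until it reaches the endosome (chr18:60803848-60812652), was the member with the highest read count. It stood at 109.7, 129 and 123 CPM in fl/fl sham kidneys and at 1098, 1277 and 1127 CPM after UUO. In tKO it stood at 151, 85.1 and 133 CPM after sham and at 1293, 1124 and 735 CPM after UUO. UUO libraries lay above all sham libraries, with log2 changes of 3.28 ± 0.26 and 3.09 ± 0.26 (edgeR adjusted p = 3.1e-07 and 5.5e-07).

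The genes of peptide exchange rose as well. H2-DMa, the alpha chain of H2-DM (chr17:34119541-34139101), went from 8.60, 7.10 and 5.14 CPM to 35.9, 57.1 and 43.4 CPM in fl/fl, and from 8.64, 4.67 and 9.17 CPM to 65.9, 65.9 and 53.8 CPM in tKO. Its log2 changes were 2.71 ± 0.26 and 3.06 ± 0.27 (edgeR adjusted p = 1.5e-06 and 7.2e-07), with no overlap between sham and UUO. H2-DMb1, a beta chain of H2-DM (chr17:34153072-34160230), went from 11, 12.6 and 10.5 CPM to 57.8, 69.2 and 51.6 CPM in fl/fl, and from 17.7, 9.97 and 5.18 CPM to 72.5, 83.7 and 51.3 CPM in tKO. The ranges were again apart, at log2 changes of 2.39 ± 0.30 and 2.62 ± 0.30 (adjusted p = 1.6e-05 and 7.8e-06).

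H2-DMb2, the second H2-DM beta chain gene, was close to absent after sham surgery and had the largest increase among class II members with reads in every group. It read 0.924, 0.592 and 0.643 CPM in fl/fl sham and 28.9, 40.4 and 23.2 CPM after UUO, and 2.38, 0.623 and 2.79 CPM in tKO sham and 33.9, 33 and 22.9 CPM after UUO. The log2 changes were 5.41 ± 0.44 and 4.0 ± 0.42 (edgeR adjusted p = 3.7e-07 and 3.1e-06). H2-DMb1 and H2-DMb2 share sequence: 27.2% and 29.5% of the 50-base words in their longest GENCODE M21 transcripts also occur in another gene, and how reads that fit more than 1 gene were counted is not given in the sources used here, so the split between them is uncertain. H2-Oa and H2-Ob, the chains of H2-DO, an inhibitor of H2-DM found mainly in B cells, stayed low, between 0 and 8.46 CPM, and had the smallest class II increases, with log2 changes of 1.91 and 1.32 in fl/fl and 2.12 and 1.57 in tKO. The fl/fl call of H2-Ob was lost on leaving out sham replicate 1, sham replicate 2 or UUO replicate 2 (adjusted p between 0.057 and 0.086), and its tKO call on leaving out UUO replicate 2 (adjusted p = 0.054).

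Ciita, the class II transactivator (chr16:10480059-10528418), rose from 0.995, 3.18 and 2.25 CPM to 23.4, 35.2 and 9.59 CPM in fl/fl, and from 2.53, 3.95 and 6.18 CPM to 30.5, 31.4 and 10.7 CPM in tKO. Replicate 3 of each UUO group was well below its companions, and even so above every sham library. The log2 changes were 3.41 ± 0.60 and 2.58 ± 0.59 (edgeR adjusted p = 0.00034 and 0.0025).

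On the class I side the classical heavy chains started from a higher level and rose less. H2-K1 (ENSMUSG00000061232, chr17:33996017-34000347) stood at 126, 123 and 136 CPM in fl/fl sham and at 579.9, 590.2 and 643 CPM after UUO. In tKO it stood at 182, 244 and 139 CPM after sham and at 504, 457 and 358 CPM after UUO. The sham libraries of tKO lay above those of fl/fl and the UUO libraries below, and in each genotype sham and UUO were apart. The log2 changes were 2.23 ± 0.19 in fl/fl and 1.22 ± 0.19 in tKO (edgeR adjusted p = 6.0e-07 and 9.9e-05). The difference between these changes, -1.01 ± 0.26, did not pass the test over all genes (adjusted p = 0.13), though it did in DESeq2 (adjusted p = 0.021).

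H2-D1, the other classical heavy chain (chr17:35262730-35267499), read 328, 273 and 291 CPM in fl/fl sham and 748, 762 and 986 CPM in fl/fl UUO kidneys. In tKO it read 358, 314 and 211 CPM after sham and 819.6, 845 and 544 CPM after UUO. The log2 changes were 1.49 ± 0.22 and 1.32 ± 0.22 (edgeR adjusted p = 6.9e-05 and 0.00018), again without overlap. B2m, the light chain shared by all class I molecules (chr2:122147686-122153083), read 151, 164 and 205 CPM and then 509, 449 and 609 CPM in fl/fl. In tKO B2m read 214, 218 and 267 CPM after sham and 752, 803 and 533 CPM after UUO, and its changes of 1.59 ± 0.26 and 1.58 ± 0.26 were nearly equal (adjusted p = 0.00019 and 0.0002).

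The peptide-loading genes differed among themselves. Tap2 (chr17:34203527-34216321) rose from 25.4, 23.7 and 23.3 CPM to 78.6, 83.0 and 98.7 CPM in fl/fl and from 30.4, 28.7 and 22.3 CPM to 94.1, 90.7 and 69.2 CPM in tKO, with log2 changes of 1.85 ± 0.17 and 1.64 ± 0.17 (edgeR adjusted p = 9.3e-07 and 2.8e-06). Tap1 (chr17:34187553-34197225) rose from 9.45, 9.10 and 10.5 CPM to 20.5, 24.2 and 22.8 CPM in fl/fl, and from 17.4, 18 and 16.5 CPM to 24.0, 23.9 and 26.8 CPM in tKO. Its sham level in tKO lay above all fl/fl sham libraries, and its log2 changes were 1.21 ± 0.18 and 0.52 ± 0.18 (adjusted p = 7.6e-05 and 0.028; in tKO the call ended without the library labelled sham replicate 1, at an adjusted p of 0.055).

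Tapbp (chr17:33915899-33929292) stood apart from the other loading genes. It rose in fl/fl from 49.3, 37.8 and 57.0 CPM to 148, 142 and 109 CPM, a log2 change of 1.47 ± 0.27 (edgeR adjusted p = 0.00043). In tKO it read 89.5, 43.6 and 54.8 CPM after sham and 71.9, 53.8 and 52.8 CPM after UUO. These ranges overlap, and the log2 change of -0.08 ± 0.26 did not pass the test (adjusted p = 0.84); on library sizes without the composition correction it was 0.90, where the median of all genes was 1.06. Leaving out single libraries took the tKO change from -0.28 to 0.28, the latter without the library labelled tKO sham replicate 1 (adjusted p = 0.41). The difference between the genotypes' changes, -1.55 ± 0.37, did not pass the test across all genes (adjusted p = 0.10 in edgeR) and did in DESeq2 (adjusted p = 0.011). Without that library it was -1.19 (edgeR adjusted p = 0.088).

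Nlrc5, the class I transactivator (chr8:94434356-94527272), rose from 3.34, 4.44 and 5.53 CPM to 20.6, 27.8 and 24.1 CPM in fl/fl and from 9.76, 15.5 and 18.9 CPM to 38.5, 46.1 and 39.5 CPM in tKO. Every tKO library lay above every fl/fl library of the same surgery when no LY2109761 was given. Its log2 changes with UUO were 2.44 ± 0.27 and 1.5 ± 0.26 (edgeR adjusted p = 5.1e-06 and 0.00026).

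Non-classical class I genes went in several directions. H2-Q4, the most abundant H2-Q gene, rose from 40.6, 34.6 and 34.0 CPM to 109, 122 and 127 CPM in fl/fl and from 60.9, 57.6 and 54.2 CPM to 166, 159 and 136 CPM in tKO, with log2 changes of 1.71 ± 0.16 and 1.41 ± 0.16 (edgeR adjusted p = 1.2e-06 and 6.6e-06). H2-Q7, which encodes a Qa-2 molecule, rose by 1.36 and 0.69, and H2-M3, which presents formylated peptides, by 1.46 and 1.43. H2-M2, at 1 read in all fl/fl sham libraries together and 114 reads after UUO, had a ratio of 78.6 with an exact 95% counting interval of 13.8 to 3133; in tKO 3 and 145 reads gave a ratio of 19.5 (6.53 to 95.5), and all 3 reads came from the library labelled tKO sham replicate 1, without which the level is at least 10.2-fold higher.

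By contrast H2-T22, a ligand of some gamma delta T cells, stood at 105, 114 and 102 CPM in fl/fl sham and at 74.1, 76.3 and 85.2 CPM after UUO, the only call of a decrease in fl/fl (log2 change -0.44 ± 0.15, edgeR adjusted p = 0.030; without the composition correction it was 0.30, below the all-gene median of 0.76). The call of a decrease was lost on leaving out fl/fl sham replicate 1 or 2, or fl/fl UUO replicate 1 or 2. In tKO H2-T22 read 87.7, 67.6 and 61.4 CPM after sham and 87.7, 93.1 and 69.1 CPM after UUO, which overlap. Its log2 change there was 0.20 (edgeR adjusted p = 0.31), and 0.38 without the library labelled tKO sham replicate 1 (adjusted p = 0.061). H2-T23, which encodes Qa-1, a ligand of inhibitory receptors of NK cells, read 127, 109 and 98.4 CPM in fl/fl sham and 89.2, 94.1 and 108 CPM after UUO, a change of -0.20 ± 0.20 that did not pass the test. In tKO H2-T23 went from 79.4, 63.5 and 49.6 CPM to 117, 122 and 73.2 CPM (0.70 ± 0.20, adjusted p = 0.011), although the ranges overlap. H2-Bl was the member that fell in tKO, from 1.27, 1.66 and 2.19 CPM to 0.244, 0.0864 and 0.273 CPM (log2 change -3.00 ± 0.70, adjusted p = 0.0028). The H2-T and H2-Q genes share much sequence, with 35.8% of the 50-base words of H2-T22 and 28.4% of those of H2-Q7 found in other genes, against a median of 15.0% over the 17 tested class I heavy chains and 0% in 8 of the 11 tested class II members, so single H2-Q and H2-T values are uncertain.

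Other genes of the pathways, from lists drawn up for this purpose, moved alongside. Of 12 genes that cut, trim or fold class I peptides and chains, 9 rose and 0 fell with UUO in each genotype. Of all genes, 20.9% rose and 18.7% fell in fl/fl, and 21.6% rose and 19.4% fell in tKO. The immunoproteasome subunits Psmb8 and Psmb10, which replace their standard counterparts in the proteasome, had log2 changes of 1.84 and 1.75 in fl/fl and 2.03 and 1.75 in tKO, and Tapbpl, a relative of tapasin, and Erap1, which trims peptides in the endoplasmic reticulum, had changes of 1.501 and 1.08 in fl/fl. Of 10 genes of class II antigen processing and costimulation, 9 rose in fl/fl and 10 in tKO, against the same shares of all genes. Ctss, the cathepsin that trims Cd74, had the largest changes of those named here, 4.47 ± 0.35 and 4.85 ± 0.35 (edgeR adjusted p = 2.4e-07 and 1.5e-07).

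Of 12 transcription factors known to act on MHC genes, 6 rose and 1 fell in fl/fl, and 4 rose and 2 fell in tKO, where 20.9% and 18.7% of all genes rose and fell in fl/fl and 21.6% and 19.4% in tKO. The tKO counts lie near those shares. Irf1, an interferon-induced activator of class I and Ciita promoters, stood at 9.26 ± 1.51 CPM (SD, n = 3) in fl/fl sham and 28.5 ± 2.63 after UUO, and at 24.8 ± 4.81 CPM in tKO sham and 19.8 ± 4.07 after UUO. Its change was 1.62 ± 0.19 in fl/fl (edgeR adjusted p = 7.5e-06) and -0.32 ± 0.18 in tKO (adjusted p = 0.17; 0.79 without the composition correction, below the all-gene median of 1.06). The difference between them passed the test (-1.94 ± 0.26, adjusted p = 0.0080), though not with only the groups compared (adjusted p = 0.062) or without the composition correction (adjusted p = 0.16). Nfyc, a subunit of the Y box factor NF-Y, fell by 1.16 and 1.23 on the log2 scale; without the composition correction neither change passed. Ifng, the gene of interferon gamma, had 0 reads in the 6 sham libraries and at most 0.329 CPM in the 12 obstructed ones. Of 7 class I-like genes outside the H2 complex, 3 rose and 2 fell in fl/fl and 4 rose and 1 fell in tKO, against the same shares of all genes; Azgp1, a soluble class I-like protein, had changes of -2.68 and -3.22.

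Most markers of macrophages, dendritic cells, T and NK cells and neutrophils moved in the same direction. Of 14 macrophage and monocyte markers, 13 rose in fl/fl and 12 in tKO, and 0 fell. Of 10 dendritic cell markers, 8 rose in fl/fl and 9 in tKO, and 0 fell. Of 10 tested T and NK cell markers, 9 rose in fl/fl and 8 in tKO, and 0 fell. All 6 tested neutrophil markers and all 6 common leukocyte genes rose in both genotypes. Of 8 endothelial markers, 1 rose and 1 fell in fl/fl, and 4 rose and 0 fell in tKO. Among all genes 20.9% rose and 18.7% fell in fl/fl, and 21.6% rose and 19.4% fell in tKO. Csf1r, a large part of the macrophage sum after sham, did not rise. Its means after sham and UUO were 117 and 106 CPM in fl/fl and 143 and 137 CPM in tKO. The summed level of 14 macrophage and monocyte markers was 204 to 233 CPM in fl/fl sham libraries and 1141 to 1339.9 CPM after UUO, and 238 to 289 CPM and then 1448 to 3035 CPM in tKO. The highest value came from tKO UUO replicate 2, where Adgre1 read 189.7 CPM against 21.3 to 26.3 CPM in the other tKO UUO libraries; without this library 21 members rose and 1 fell in tKO. The 10 dendritic cell markers summed to 21.1 to 22.9 CPM and then 62.2 to 111 CPM in fl/fl and to 27.7 to 33.3 CPM and then 107 to 153 CPM in tKO. Of these macrophage and dendritic cell markers 0 were at 0 in all libraries of a group. The 10 B cell and plasma cell markers were at 15.1 to 17.2 CPM and 17.8 to 31.8 CPM, in the fl/fl sham and UUO libraries, with 3 genes higher and 2 lower, near the shares of all genes. The 10 kidney epithelium markers, of which 7 passed the test as lower and 1 as higher in fl/fl, summed to 8121 to 9117 CPM after sham and 2616 to 3631 CPM after UUO. The part of these cell types in the MHC changes was not tested.

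The balance of the classes was compared as the summed FPKM (fragments scaled by gene length and library depth) of the 5 class II chains over that of the 27 class I heavy chains, a ratio within a library that does not depend on its scaling. In fl/fl sham kidneys it was 0.174, 0.258 and 0.241, and after UUO 0.706, 1.003 and 0.659. In tKO it was 0.244, 0.203 and 0.328 after sham, and 1.33, 1.12 and 1.28 after UUO. With LY2109761 the ratio was 1.04, 0.888 and 0.909 in fl/fl and 1.13, 1.45 and 1.17 in tKO. In order of the means the groups were fl/fl sham (0.224 ± 0.044, SD, n = 3), tKO sham (0.258 ± 0.063), fl/fl UUO (0.789 ± 0.187), fl/fl UUO with LY2109761 (0.947 ± 0.084), tKO UUO (1.24 ± 0.107) and tKO UUO with LY2109761 (1.25 ± 0.176). Neighbours overlapped within the sham pair, within the fl/fl obstructed pair and within the tKO obstructed pair, while sham, obstructed fl/fl and obstructed tKO libraries formed separate ranges.

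**Figure D2:**
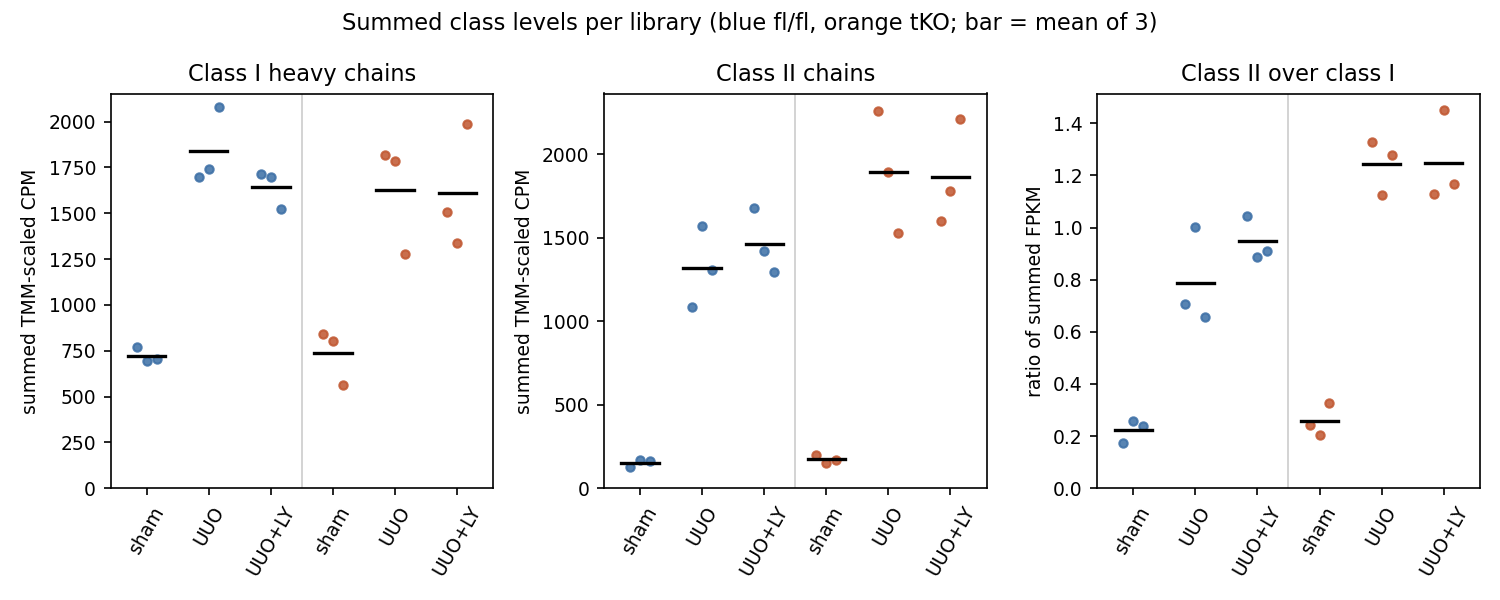
Summed TMM-scaled CPM of the class I heavy chains (left) and of the class II chains (middle), and the ratio of their summed FPKM (right), per library, with bars at the group means. The ratio is 0.174 to 0.328 in the 6 sham libraries, 0.659 to 1.04 in the 6 obstructed fl/fl libraries and 1.12 to 1.45 in the 6 obstructed tKO libraries.

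The absolute height of this ratio depends on the gene lengths behind the deposited FPKM. Counts and FPKM imply a length of 10612 bases for H2-K1, more than the 4331 bases that its gene spans in GENCODE M21, and implied lengths exceeded the span in 5 of the 26 members with at least 1000 reads over the 18 libraries. H2-K1 and H2-D1 made up 60.1 to 76.7% of the class I heavy-chain FPKM. Taking only H2-Aa, H2-Ab1 and H2-Eb1 over H2-K1 and H2-D1 gave 0.364, 1.04 and 1.30 in fl/fl sham, UUO and UUO with LY2109761 and 0.403, 1.76 and 1.70 in tKO. Cd74 over B2m gave 0.249, 0.808 and 0.530 in the same fl/fl groups and 0.188, 0.530 and 0.664 in tKO. By this pair fl/fl UUO was the highest group, so that the order of the genotypes after UUO, and of fl/fl UUO with and without LY2109761, was the reverse of that by the class sums. The fl/fl UUO libraries read 0.763, 1.006 and 0.654, and both the tKO UUO libraries (0.487 to 0.608) and the fl/fl libraries with LY2109761 (0.406 to 0.593) lay wholly below them. No test was made of the ratio.

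Treatment with LY2109761 during obstruction changed no MHC member past the threshold. In fl/fl 0 of 33 were called, where 5.15% of all genes were called (2.52% higher, 2.62% lower), with 3 members at an unadjusted p under 0.05 (median log2 change -0.02 for class I and 0.10 for class II). In tKO 0 of 33 were called, where 0.171% of all genes were (0.0831% higher, 0.0883% lower), with 2 at an unadjusted p under 0.05 (medians -0.09 and 0.09). DESeq2 called 1 member in fl/fl and 0 in tKO. Libraries with and without the inhibitor lay wholly apart in 2 members upward and 5 downward in fl/fl, against 16.3% and 15.4% of all genes, and in 1 and 2 in tKO, against 12.8% and 12.7%. H2-Aa read 704, 593 and 566 CPM in fl/fl with LY2109761 and 663, 881 and 889 CPM in tKO, within or close to the ranges of UUO alone (changes of 0.10 ± 0.19 and -0.17 ± 0.19). Cd74 was lower in all fl/fl libraries with LY2109761, at 864, 707 and 783 CPM, a change of -0.57 ± 0.24 that did not pass (edgeR adjusted p = 0.17), and read 1003, 1094 and 1718 CPM in tKO (0.28 ± 0.24).

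H2-Ab1 read 516, 445 and 401 CPM in fl/fl with LY2109761 and 604, 507 and 889 CPM in tKO, and H2-Eb1 read 456, 384 and 328 CPM and 334, 393 and 431 CPM. H2-DMa read 61.1, 53.0 and 42.8 CPM and 57.2, 63.9 and 75.3 CPM, and H2-DMb1 53.8, 49.6 and 54.0 CPM and 67.9, 69.5 and 83.7 CPM. Ciita ranged widely, at 26.9, 22 and 8.68 CPM in fl/fl and 26.2, 22.9 and 37.8 CPM in tKO. All these libraries lay above the sham libraries of their genotype and none of these genes passed the test against UUO alone. In fl/fl with LY2109761, replicate 3 read Ptprc, the common leukocyte antigen, at 17.6 CPM against 71.6 and 76.6 CPM in its companions. Its H2-Aa, H2-Ab1 and H2-Eb1 levels lay between those of its companions. Its ratio of Cd74 over B2m did stand apart, at 0.406 against 0.591 and 0.593.

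On the class I side with LY2109761, H2-K1 read 483, 466 and 452 CPM in fl/fl and 468, 439 and 629 CPM in tKO, and H2-D1 read 790.1, 783 and 677 CPM and 645, 586 and 866 CPM. B2m read 516, 616 and 467 CPM and 477, 563 and 1080.1 CPM, with tKO replicate 3 highest. Tap1 read 23.2, 19.3 and 16.2 CPM and 31.9, 20.5 and 34.4 CPM. Tap2 read 99.7, 93.3 and 78.2 CPM in fl/fl and 63.1, 48.0 and 66.2 CPM in tKO, where all 3 lay below the UUO libraries (-0.52 ± 0.16, edgeR adjusted p = 0.13). Nlrc5 read 29.3, 34.5 and 22.4 CPM in fl/fl and 38.0, 27.0 and 45.1 CPM in tKO, which overlaps UUO alone in both genotypes.

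Tapbp had the lowest p among members for LY2109761 in fl/fl. It read 59.8, 59.7 and 91.4 CPM with the inhibitor, below the 109 to 148 CPM of UUO alone and above the sham libraries, a log2 change of -0.92 ± 0.26 that narrowly missed the threshold (edgeR adjusted p = 0.054) and passed it in DESeq2 (adjusted p = 0.016). In tKO it read 74.0, 99.0 and 64.6 CPM with LY2109761, overlapping UUO alone, a change of 0.41 ± 0.26 (adjusted p = 0.45). The difference between the genotypes' responses was 1.33 ± 0.37 and passed the test (adjusted p = 0.029), the 1 member to do so, against 13.8% of all genes called in that comparison (7.05% higher, 6.8% lower). The call was lost without any 1 of fl/fl UUO replicates 1 and 2, fl/fl UUO with LY2109761 replicates 1 and 3, tKO UUO replicates 2 and 3, and tKO UUO with LY2109761 replicate 2, with adjusted p between 0.056 and 0.078.

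Between genotypes, differences were fewer and smaller than between surgeries. After sham surgery 4 class I side members were higher in tKO and 2 were lower, with 0 of 11 class II members called, against 5.76% of all genes higher and 6.57% lower. Nlrc5 was higher by 1.71 ± 0.27 (edgeR adjusted p = 0.0042) and Tap1 by 0.83 ± 0.18 (adjusted p = 0.013). H2-Q7, at 36.8, 32.0 and 28.5 CPM in tKO against 15.8, 16.5 and 21.5 CPM, was higher by 0.86 ± 0.25 (adjusted p = 0.039), and H2-Q4 by 0.66 ± 0.16 (adjusted p = 0.018). H2-T23 was lower by a log2 change of -0.79 ± 0.20 and H2-T22 by -0.56 ± 0.15 (adjusted p = 0.022 and 0.028). In all 6 genes the libraries of the genotypes did not overlap; over the 33 members 9 lay wholly above and 2 wholly below, against 14.1% and 16.2% of all genes.

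Those sham calls depended on the fit. With only the 2 sham groups fitted, 0 of the 6 passed, with adjusted p between 0.073 and 0.13, and without the composition correction 1 did, Nlrc5. Leaving out 1 library gave between 1 and 6 calls: 3 without fl/fl sham replicate 1 or 3, 1 without fl/fl sham replicate 2, and 2 and 4 without tKO sham replicates 2 and 3. Only 1 of those 2 and 3 of those 4 were among the 6 above. The new calls, both higher in tKO, were the class II member H2-DMb2 (edgeR adjusted p = 0.036) and H2-K1 (adjusted p = 0.030). Without the library labelled tKO sham replicate 1, 3 members were higher and 3 lower, 5 of them among the 6 above; H2-Q7 was the gene lost (adjusted p = 0.074). The mitochondrial share of reads differed between these groups (33.7 to 69.5% in tKO, 30.8 to 35.5% in fl/fl), and its part in the calls was not tested.

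After obstruction 4 members were higher in tKO than in fl/fl and 1 was lower, against 8.27% and 9.65% of all genes. The class II chains H2-Aa and H2-Eb1 were each higher by 0.65 (SE 0.19 and 0.21, edgeR adjusted p = 0.029 and 0.039), with overlap between the libraries. Nlrc5 was higher by 0.78 ± 0.25 (adjusted p = 0.043), and H2-T10, at 9.56, 11.9 and 9.57 CPM against 3.74, 5.38 and 6.86 CPM, by 0.96 ± 0.26 (adjusted p = 0.020). Tapbp was lower, with a log2 change of -1.16 ± 0.26 (adjusted p = 0.0095) and no overlap. Over the 33 members 5 lay wholly above and 4 wholly below the fl/fl libraries, against 21.8% and 20.6% of all genes. Of 6 common leukocyte genes 3 passed the test as higher in these tKO kidneys, with a summed level of 462 to 1123 CPM against 353 to 470.5 CPM in fl/fl, and of 10 kidney epithelium genes 4 passed as lower (1905 to 2238 against 2616 to 3631 CPM). The part of these cells in the result was not tested.

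Of these 5 calls only that of Tapbp held without each single library of the 2 groups, with a log2 change of -1.08 to -1.32. The count was 1 without fl/fl UUO replicate 1 or tKO UUO replicate 2, 2 without fl/fl UUO replicate 3 or tKO UUO replicate 1, and 4 without fl/fl UUO replicate 2 or tKO UUO replicate 3. Nlrc5 lost its call without any 1 of the 6 libraries. Without the composition correction 0 of the 5 passed, with Tapbp at -1.13 (adjusted p = 0.097).

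**Figure D3:**
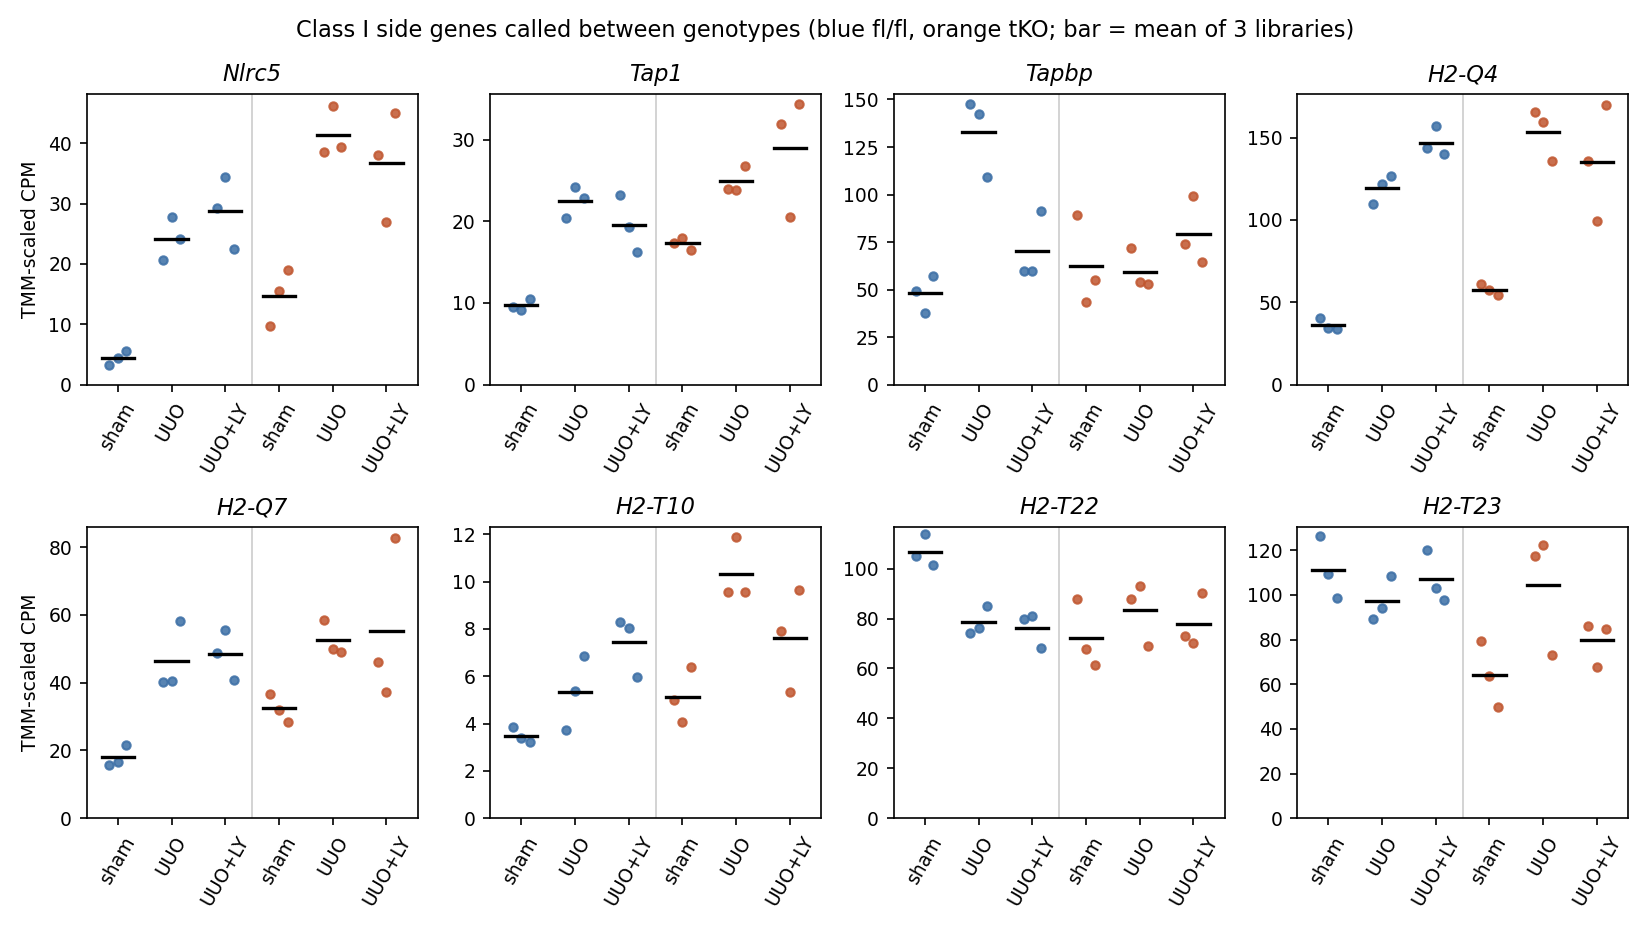
TMM-scaled CPM of the 8 class I side genes called between genotypes after sham surgery, after UUO or in the response to LY2109761, per library, fl/fl in blue and tKO in orange, with bars at the group means. Tapbp reads 109 to 148 CPM in fl/fl UUO libraries and 52.8 to 71.9 CPM in tKO UUO libraries, and Nlrc5 is higher in tKO in the sham groups (9.76 to 18.9 against 3.34 to 5.53 CPM).

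With LY2109761 0 of 33 members were called between genotypes (2.98% of all genes were, 0.888% higher and 2.09% lower), with 7 at an unadjusted p under 0.05, and DESeq2 called 3 (Tap1 and H2-Eb2 higher in tKO, Tap2 lower). There 5 members lay wholly above and 2 wholly below, against 13% and 14.2% of all genes. The responses to obstruction were also compared between genotypes directly. In that test 0 members were called, also without the library labelled tKO sham replicate 1, against 0.0415% of all genes (0.0104% higher, 0.0312% lower). At an unadjusted p under 0.05 there were 8 (6 of class I and 2 of class II), and DESeq2 called 2, H2-K1 and Tapbp. H2-K1 rose less in tKO than in fl/fl. Tapbp rose in fl/fl and had a change of -0.08 in tKO (edgeR adjusted p = 0.84). The median difference between the responses was -0.26 for class I and 0.22 for class II.

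Kidneys of another experiment of the series, 4 from Pcmt1 knockout and 4 from wild-type mice without surgery, gave a list of 410 genes, each differing between the group means by at least 1.501-fold. The list was chosen by the authors on those libraries, so its values are a description and no test was made. It held 8 members, of which 7 were lower in the knockout, where 37.8% of all listed genes were lower. These are 4 class II side genes (Cd74, H2-Aa, H2-Ab1, H2-Eb1) and 3 H2-Q genes, with H2-Q10, a secreted class I molecule known mainly from liver, higher.

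H2-Aa stood at 18.2, 13.3, 18.2 and 15.7 FPKM in the wild-type kidneys and at 4.51, 9.65, 11.1 and 8.43 FPKM in the knockout, a 1.94-fold difference of the means without overlap. Cd74 stood at 67.5, 72.8, 80.5 and 61.9 FPKM and at 27.4, 43.8, 49.1 and 35.8 FPKM, 1.81-fold lower and without overlap. H2-Ab1 (14.3 ± 3.24 and 8.11 ± 2.16 FPKM, SD, n = 4) was 1.77-fold lower, H2-Eb1 (16.5 ± 3.06 and 9.15 ± 3.67) 1.80-fold lower with overlap. Over the 8 kidneys the level of each of these 4 genes was lowest in knockout replicate 1. H2-Q6 was 1.56-fold, H2-Q5 1.61-fold and H2-Q7 1.65-fold lower, and H2-Q10 stood at 0.744 ± 0.320 FPKM in the wild type and 2.18 ± 0.659 FPKM in the knockout. Knockout replicate 1 was also the lowest of the 8 kidneys in H2-Q6 and H2-Q7 and the highest in H2-Q10. In the sham kidneys of the obstruction experiment the same class II genes differed between tKO and fl/fl by 0.28 (H2-Aa), 0.05 (H2-Ab1), 0.16 (H2-Eb1) and 0.03 (Cd74) on the log2 scale, none past the threshold. Without the library labelled tKO sham replicate 1 these differences were 0.25, -0.20, 0.04 and -0.15, again none past the threshold. Against their direction in the list, H2-Q7 and H2-Q5 were higher in tKO sham, by 0.86 and 0.77 (edgeR adjusted p = 0.039 and 0.16). Without that library they were higher by 0.75 and 0.29 (adjusted p = 0.074 and 0.62). H2-Q6 and H2-Q10 were not compared here.

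**Figure D4:**
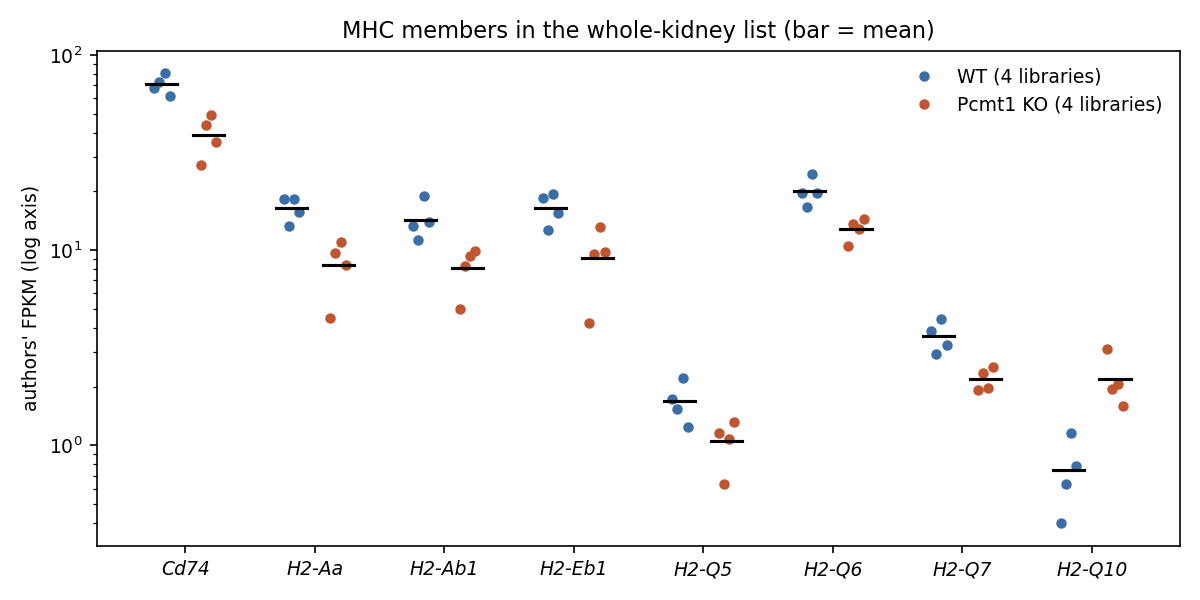
FPKM as deposited by the authors (log axis) of the 8 members in the list of genes differing between Pcmt1 knockout (orange) and wild-type (blue) kidneys, per library, with bars at the means of 4. Cd74 reads 61.9 to 80.5 FPKM in wild-type and 27.4 to 49.1 FPKM in knockout kidneys, and H2-Q10 is the 1 gene with the knockout above the wild type.

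The list from HK-2 cells, a human proximal tubule line with and without PCMT1 knockout, held 379 genes and 0 HLA genes or human counterparts of the other members. As it lists only genes the authors selected, this gives no level for those genes.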

How the data were processed

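Messenger RNA of kidneys was sequenced. Per the submitters' processing notes the tools were HISAT2, StringTie and fastp, without versions, and the mouse build GRCm38; how reads were counted is not given in the sources used here. Each deposited table holds, per gene and library, a raw read count and an FPKM, both computed by the authors. The gene positions deposited for the obstruction experiment match GRCm38 in 2.69% of 51884 shared gene IDs (98.8% of 407 in the whole-kidney list), so coordinates in the text come from GENCODE M21 (GRCm38), matched by Ensembl ID.

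All 57180 genes were fitted with edgeR 4.0.16 (limma 3.58.1, R 4.3.3): filterByExpr by group left 19256 genes, libraries were scaled by TMM, and the quasi-likelihood test used 1 fit of 18 libraries in 6 groups (12 residual degrees of freedom, biological coefficient of variation 0.283) with Benjamini-Hochberg adjustment over all genes and a threshold of 0.05. CPM are TMM-scaled. A standard error is the log2 change over the square root of F. The script was tested on simulated data. DESeq2 1.42.0, RLE and column-total scaling, no filter, a replicate block, smaller fits and single libraries left out were alternatives. Counting intervals and floors cover counting error only. Named in full were the classical class I chains, B2m, Tap1, Tap2, Tapbp, Nlrc5, H2-Aa, H2-Ab1, H2-Eb1, Cd74, Ciita, H2-DMa and H2-DMb1, then the largest and smallest changes called, members called between genotypes, and up to 6 non-classical genes. H2-DMb2, H2-Oa, H2-Ob and H2-Ea were named after their values were seen, as were Ifng, Adgre1, Csf1r and Ptprc. Of each pathway list up to 4 genes of smallest p were named. Members and lists were chosen with earlier results of these data known. Promoter windows are RefSeq's.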

Additional observations from a re-analysis of the deposited data

Results flagged for a closer look

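Tapbp, the gene of tapasin, had log2 changes with LY2109761 of -0.92 in obstructed fl/fl kidneys (edgeR adjusted p = 0.054) and 0.41 in obstructed tKO kidneys (adjusted p = 0.45). Neither change passed the threshold, and the test of their difference did (edgeR's quasi-likelihood test, 1.33 on the log2 scale, adjusted p = 0.029). In fl/fl the 3 libraries with the inhibitor (59.8, 59.7 and 91.4 CPM) lay below the 3 without it (148, 142 and 109 CPM), and in tKO the libraries overlapped. As 13.8% of all genes passed the same test, 1 call among 33 members is below that share. Irf1, a transcription factor on the pathway list, also differed between genotypes, in its change with obstruction (-1.94, adjusted p = 0.0080; 0.0415% of all genes passed) and in its change with LY2109761 (1.01, adjusted p = 0.019). Irf1 was not alone on the pathway lists in the latter test, which 13.8% of all genes passed. Ifngr2 passed at 1.30, and Psme1, Psme2 and the transcription factor Spi1 at -0.85, -0.85 and -1.96 (edgeR adjusted p = 0.013, 0.010, 0.024 and 0.035). Irf1 read 28.5 ± 2.63 CPM in obstructed fl/fl kidneys and 16.7 ± 2.30 CPM with LY2109761 (SD, n = 3; log2 change -0.77, edgeR adjusted p = 0.029), and 19.8 ± 4.07 and 23.3 ± 0.718 CPM in tKO. That fl/fl call was lost with column totals (adjusted p = 0.13), with only the groups compared (adjusted p = 0.069) and without any 1 of the 3 fl/fl UUO libraries or of replicates 1 and 3 with LY2109761 (adjusted p between 0.055 and 0.14). The difference between the genotypes in the change with LY2109761 lost its call with column totals (1.02, adjusted p = 0.11) and without fl/fl UUO with LY2109761 replicate 1 (0.92, adjusted p = 0.051). In the whole-kidney list, with 4 kidneys a group, no sample was singled out among the 8 members. Knockout replicate 1 was even so the lowest of all kidneys in Cd74, H2-Aa, H2-Ab1, H2-Eb1, H2-Q6 and H2-Q7, and the highest in H2-Q10. There H2-Aa read 4.51 FPKM, against 8.43 to 11.1 FPKM in the other knockout kidneys. Groups of 3 were not searched in this way, and their libraries named above were noted from single genes.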

How the results depend on the processing

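The obstruction counts of 26 members ranged from 23 to 27 in fl/fl and from 21 to 26 in tKO when single libraries were left out, and stayed within 1.5 times under the other settings; column totals gave 33 calls in tKO (32 higher, 1 lower) against 26 (25 and 1), called 8547 genes higher and 906 lower in fl/fl (4031 and 3594 with TMM) and 11686 and 715 in tKO (4168 and 3729), and moved the median of all genes from 0.02 to 0.76 in fl/fl and 1.06 in tKO. Other counts were smaller and moved. For LY2109761 in fl/fl the 0 calls became 1 (Tapbp) in DESeq2, with the replicate block, and in 1 of the fits leaving out a library (0 to 1). For tKO against fl/fl after sham the 6 calls became 1 with column totals, 0 with only the groups compared and 1 to 6 leaving out a library; after obstruction the 5 became 0 with column totals, 2 with no filter and 1 to 4; with LY2109761 the 0 became 3 in DESeq2 and 0 to 1. Between genotypes the response to obstruction went from 0 to 2 in DESeq2 and that to LY2109761 from 1 to 0 with column totals (0 to 1 leaving out a library). The cause was not tested. Column totals reversed Tapbp (0.90) and Irf1 (0.79) in tKO obstruction, H2-T22 in fl/fl obstruction (0.30), the class II median for tKO against fl/fl sham (-0.0138) and the class I median for the genotype by obstruction interaction (0.0264), and moved the class II median for tKO obstruction to 3.95. The ratio of the classes, in the order fl/fl sham, UUO, UUO with LY2109761, then tKO, was 0.364, 1.04, 1.30, 0.403, 1.76 and 1.70 for H2-Aa, H2-Ab1 and H2-Eb1 over H2-K1 and H2-D1; Cd74 over B2m gave 0.249, 0.808, 0.530, 0.188, 0.530 and 0.664, which makes fl/fl UUO the highest group. Leaving out a library the ratio stayed at 0.207 to 0.249, 0.682 to 0.854, 0.899 to 0.976, 0.224 to 0.286, 1.20 to 1.30 and 1.15 to 1.31.

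Same-numbered replicates showed no strong pairing: over 40 such pairs of libraries the correlation of their deviations from the group means was -0.134 to 0.154. No differently numbered pairs were set beside them and groups held 3 libraries, so this cannot tell whether samples were paired. With the replicate block the count of calls for LY2109761 in fl/fl was 1 rather than 0, and H2-Eb1 between genotypes after UUO lost its call (0.65, edgeR adjusted p = 0.058). With 3 libraries a group, members under about 1 CPM rest on few reads.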
